A study of Mus musculus with 22 samples.

Results

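The genes described here encode proteins that write, erase or read marks on histones, or that move nucleosomes along DNA. They were chosen by gene symbol among the protein-coding rows of the liver count table. Symbols beginning with Kmt, Kdm, Chd, Arid, Baz, Hdac, Kat or Phc and a digit, or with Setd or Smarc, were taken, together with Ash1l, Crebbp, Ep300, Ezh1, Ezh2 and Nsd1. This gave 97 of the 15448 genes in the table. The annotation holds 4 more such names, Arid3c, Chd5, Kdm4d and Smarca1, which were not analysed here. The rule uses names and no measured value, but the family was proposed after results of the comparisons below were known. The counts of these genes that passed a test are therefore a description, set beside the share of all genes that passed, and nothing is read from them as independent evidence.

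Histone tails carry acetyl and methyl groups that mark active and silent stretches of chromatin. Acetyltransferases (Crebbp, Ep300 and the Kat enzymes) add acetyl groups and histone deacetylases (Hdac) remove them. SET-domain enzymes (Kmt2, Setd, Nsd1, Ash1l, Ezh1, Ezh2) add methyl groups and lysine demethylases (Kdm) take them off. Remodellers of the SWI/SNF, CHD and ISWI families use ATP to slide or evict nucleosomes, and polyhomeotic proteins belong to the Polycomb repressive complex 1. In liver these proteins act with nuclear receptors and inflammatory transcription factors on genes of metabolism and of the acute phase response.

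Liver RNA with poly(A) tails was sequenced from 22 male wild-type mice of the CD2F1 strain. The CT group (n = 6) was sham-injected and is labelled vehicle. The C26 group (n = 8) received C26 cells, a mouse colon carcinoma line used as a model of cancer cachexia, the wasting of muscle and fat that tumours cause, and the C26-TDCA group (n = 8) received C26 cells and a daily dose of 10 mg/kg taurodeoxycholic acid (TDCA) by intraperitoneal route. TDCA arises when gut bacteria convert a primary bile acid to deoxycholic acid and the liver couples it to taurine. The design text calls the C26 group untreated, so that the injections themselves and TDCA cannot be told apart between the tumour groups, and no age is given. The samples are labelled as separate mice of 1 experiment, and the p-values measure the spread between them.

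The 250 bases before the transcription start were taken from RefSeq (build GRCm38.p6), where 74 of the 97 genes matched by symbol, chromosome and strand. Their median GC content was 61% against 52.4% over all 32841 promoters of the table, and the ratio of observed to expected CpG dinucleotides had a median of 0.785 against 0.374. A ratio above 0.6 was found in 57 of the 74 (77.0%) and in 34.0% of all promoters. The promoters of 5 genes are shown, chosen with their results known and among windows with no annotated exon base (30 of 74): Arid5a and Kdm4a, which were higher in both tumour groups, Hdac5, which was lower in both, and Kmt2c and Phc3, which were higher in C26-TDCA than in C26. They lie at chr1:36307483-36307732 (plus strand), chr4:118180044-118180293 (minus), chr11:102230173-102230422 (minus), chr5:25498784-25499033 (minus) and chr3:30969416-30969665 (minus), each just upstream of the gene. Each is written 5′ to 3′ on the gene's strand, with CpG dinucleotides in capitals.
Arid5a: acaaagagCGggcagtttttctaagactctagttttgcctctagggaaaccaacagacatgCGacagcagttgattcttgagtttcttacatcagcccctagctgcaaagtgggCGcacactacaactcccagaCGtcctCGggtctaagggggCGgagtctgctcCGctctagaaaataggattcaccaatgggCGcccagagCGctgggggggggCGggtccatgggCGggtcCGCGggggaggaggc
Kdm4a: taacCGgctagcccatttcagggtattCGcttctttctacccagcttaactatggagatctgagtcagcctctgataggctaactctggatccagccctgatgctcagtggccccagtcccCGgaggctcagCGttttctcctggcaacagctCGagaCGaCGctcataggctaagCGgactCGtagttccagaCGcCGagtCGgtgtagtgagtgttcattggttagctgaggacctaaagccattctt
Hdac5: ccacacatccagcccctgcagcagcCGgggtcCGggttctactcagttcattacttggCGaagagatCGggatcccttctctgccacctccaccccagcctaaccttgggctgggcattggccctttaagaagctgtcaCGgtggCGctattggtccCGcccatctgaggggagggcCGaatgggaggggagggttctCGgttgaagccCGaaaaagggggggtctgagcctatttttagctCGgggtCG
Kmt2c: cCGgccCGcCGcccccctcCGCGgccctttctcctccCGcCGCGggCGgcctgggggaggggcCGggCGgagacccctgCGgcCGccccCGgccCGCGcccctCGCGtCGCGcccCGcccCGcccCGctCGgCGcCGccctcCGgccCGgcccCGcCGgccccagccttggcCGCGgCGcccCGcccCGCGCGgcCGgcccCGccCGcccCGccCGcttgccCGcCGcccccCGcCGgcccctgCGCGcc
Phc3: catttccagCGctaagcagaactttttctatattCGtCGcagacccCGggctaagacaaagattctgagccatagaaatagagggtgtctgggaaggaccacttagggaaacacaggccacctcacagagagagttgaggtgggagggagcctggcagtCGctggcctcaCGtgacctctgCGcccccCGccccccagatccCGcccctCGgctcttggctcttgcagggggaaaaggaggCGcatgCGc
The Kmt2c promoter held 48 CpGs and was 91.6% GC, whereas the other shown windows held 12 or 13 CpGs. Kdm4a, Hdac5 and Phc3, whose results went in different directions, each had 12.

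In the same windows, 4 motifs of transcription factors that act in liver inflammation and fasting were searched on both strands. The STAT motif TTCNNNGAA was present in 6 of 74 promoters (8.11%) and in 7.02% of all, and the NF-kB motif (GGG, 3 free bases and TTCC) in 6 (8.11%) and in 4.65% of all. The CRE motif TGACGTCA was in 1 (1.35%) and in 1.55% of all, and the C/EBP motif TTGCNNAA in 4 (5.41%) and in 9.57% of all. None of the 4 motifs was in the 5 windows shown. A match is only a match of letters, and its absence says only that these letters are not in the window.

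All 97 genes passed the filter on low counts. Averaged over the 22 libraries, they ran from 1.27 to 195 CPM (counts scaled to the effective library size of the TMM method) with a median of 24.6, against 13.6 for the other protein-coding genes tested. Per kilobase of the longest transcript the median was 4.19 CPM (quartiles 2.44 and 6.09), close to 3.96 for the others, whose quartiles of 1.14 and 10.8 were wider. In CT, the highest per kilobase was the remodeller Chd3 with 29.3 CPM, followed by the actin histidine methyltransferase Setd3 (28.7), the SWI/SNF subunits Smarca2 (25.96) and Smarcd2 (25.8) and the acetyltransferase Kat2b (24.0). At the other end, Hdac9 had 0.118, Arid3a 0.147 and Arid5a 0.289 CPM per kilobase. The transcripts are long: the longest annotated one had a median of 5921 bases (1579 to 19823), against 3390 bases for the others. Of the 97 genes 47 (48.5%) reached 6 kb, but only 14.2% of the 12799 others. Transcript GC was alike, with medians of 50.6% and 49.6%.

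Transcript length was weighed here because single libraries varied in how counts depended on it. In each library, log2 CPM was regressed on log2 transcript length and on GC over the other protein-coding genes. The length slope, in log2 CPM per doubling, was 0.129 ± 0.0303 in CT (SD, n = 6), 0.121 ± 0.0808 in C26 (n = 8) and 0.193 ± 0.0582 in C26-TDCA (n = 8). It was lowest in C26 mouse 6 (-0.0375), C26 mouse 5 (0.0571) and C26-TDCA mouse 7 (0.0659). In exact permutation tests (two-sided, 6 in all), no difference in length slope passed after adjustment (C26-TDCA against C26 p = 0.0567, adjusted p = 0.0851; C26-TDCA against CT p = 0.035, adjusted p = 0.07; C26 against CT p = 0.822, adjusted p = 0.822). The GC slope, per 10 percentage points, was -0.288 in CT, -0.107 in C26 and -0.241 in C26-TDCA. It differed between C26 and CT (exact permutation p = 0.000666, adjusted p = 0.00327) and between C26-TDCA and C26 (exact permutation p = 0.00109, adjusted p = 0.00327), and not between C26-TDCA and CT (adjusted p = 0.168). That the slopes differ was known from earlier work on these data, so the slope tests describe these libraries and are not independent evidence.

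Set beside these slopes without a test, the median of the 97 genes also differed between libraries. Relative to the CT mean, it was -0.30 (log2) in C26 mouse 6, the lowest library, and -0.13 in C26 mouse 5, and it reached 0.13 in C26 mouse 1, whose length slope of 0.226 was the highest of its group. In C26-TDCA it ran from -0.11 in mouse 7 to 0.15 in mouse 4, whose GC slopes were -0.281 and -0.322. Counts over the 97 genes are therefore given below also with the trend removed, counts of role groups and values of single genes only partly. For the removal, a smooth trend of log2 CPM on length and GC, learned in each library on genes outside the family, entered the fit as an offset. This also removes any biological difference that follows length or GC, and the part of the slopes in the results cannot be told apart from the group where the slopes differ between groups.

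**Figure D1:**
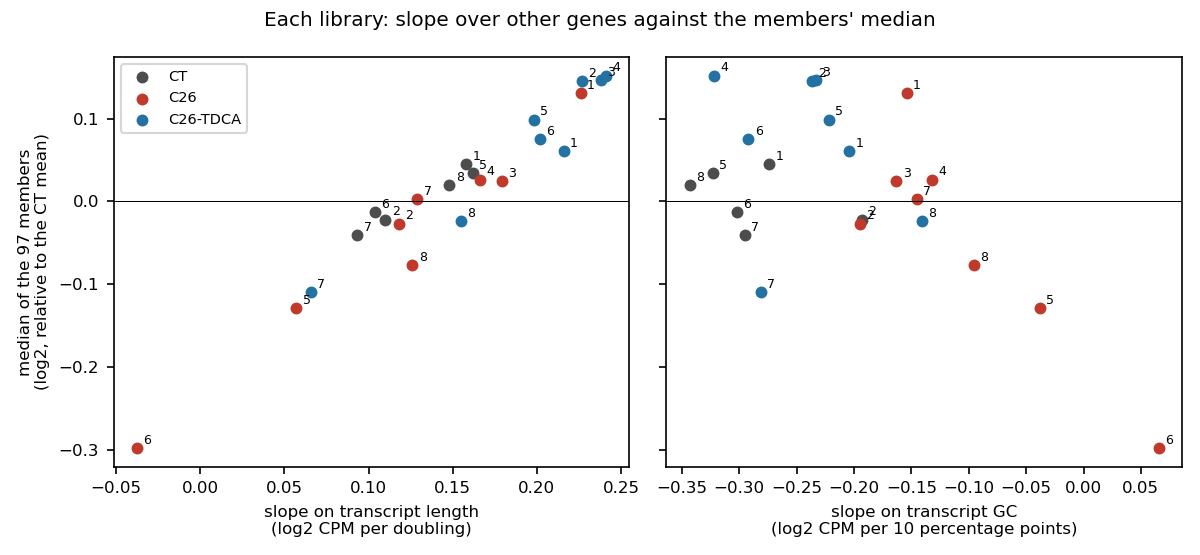
Each point is 1 of the 22 libraries, numbered by mouse and coloured by group. The vertical axis is the median of the 97 genes (log2, relative to the CT mean) and the horizontal axes are that library's length slope (left, log2 CPM per doubling) and GC slope (right, log2 CPM per 10 percentage points) over other genes; C26 mouse 6 lies at -0.0375 and 0.0654, with the lowest median of -0.30.

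Markers of other cell types also differed between groups. All 12 Kupffer cell markers were higher in C26 than in CT, with a summed level of 302 to 350 CPM in CT, 493 to 757 in C26 and 598 to 787 in C26-TDCA. Of the endothelial markers 9 of 13 were higher in C26 (369 to 458 CPM in CT, 458 to 796 in C26, 636 to 840 in C26-TDCA), of the stellate markers 8 of 12 were higher and 2 lower (294 to 375, 399 to 631 and 488 to 675 CPM), and of the monocyte and neutrophil markers 6 of 8 were higher (34.1 to 46.8, 46.4 to 123 and 44.3 to 100 CPM). Cholangiocyte markers summed to a median of 41.3 CPM in CT, 455 in C26 and 508 in C26-TDCA. Against CT, 4 of 7 were higher in C26 (median log2 fold change 0.34) and 2 of 7 in C26-TDCA (median 0.14). The sums therefore do not stand for the whole list. Hepatocyte markers were abundant in every library (67700 to 87300 CPM), and 3 of 12 were higher and 4 lower in C26. Of 4 T and NK cell markers (summed level 3.1 to 4.76 CPM in CT) 2 were lower in C26 and 0 higher, and of 7 B and plasma cell markers 1 and 0. Erythroid markers had 5 of 7 higher and 2 lower in C26, and proliferation markers 4 of 10 higher and 1 lower. Over all genes 28.9% were higher and 29.2% lower. Between C26-TDCA and C26, 1 endothelial and 1 hepatocyte marker were higher and no marker of the other lists was called. In bulk liver, fewer cells of a type and less RNA per cell cannot be told apart, and the part of these cell types in the results below was not tested.

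In tumour-bearing livers the family split in both directions. In C26 against CT, 21 of the 97 genes (21.6%) were higher at an adjusted p under 0.05 and 26 (26.8%) were lower, while 28.9% and 29.2% of all 14785 genes tested were higher and lower. In either direction 48.5% were called, against 58.1% of all genes. With upper-quartile scaling the split was 26 higher and 17 lower, and the median turned from -0.05 to 0.02. That scaling moved all genes alike, to 33.1% higher and 25.1% lower with a median of 0.07. After trend removal 16 were higher and 44 lower, against 27.1% and 32.9% of all genes, and 14 and 23 of the original calls kept their direction. Of the 50 genes not called as fitted, 21 were then lower and 2 higher. The median log2 fold change was -0.05 as fitted and -0.13 with the trend removed, against -0.003 and -0.04 over all genes. Groups did not overlap for 8 genes that were higher and 11 that were lower (19.6%), against 29.5% of all genes. Few changes were large: Arid5a and Arid3a more than doubled, and Setd4, Hdac11 and Kat2b more than halved.

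**Figure D2:**
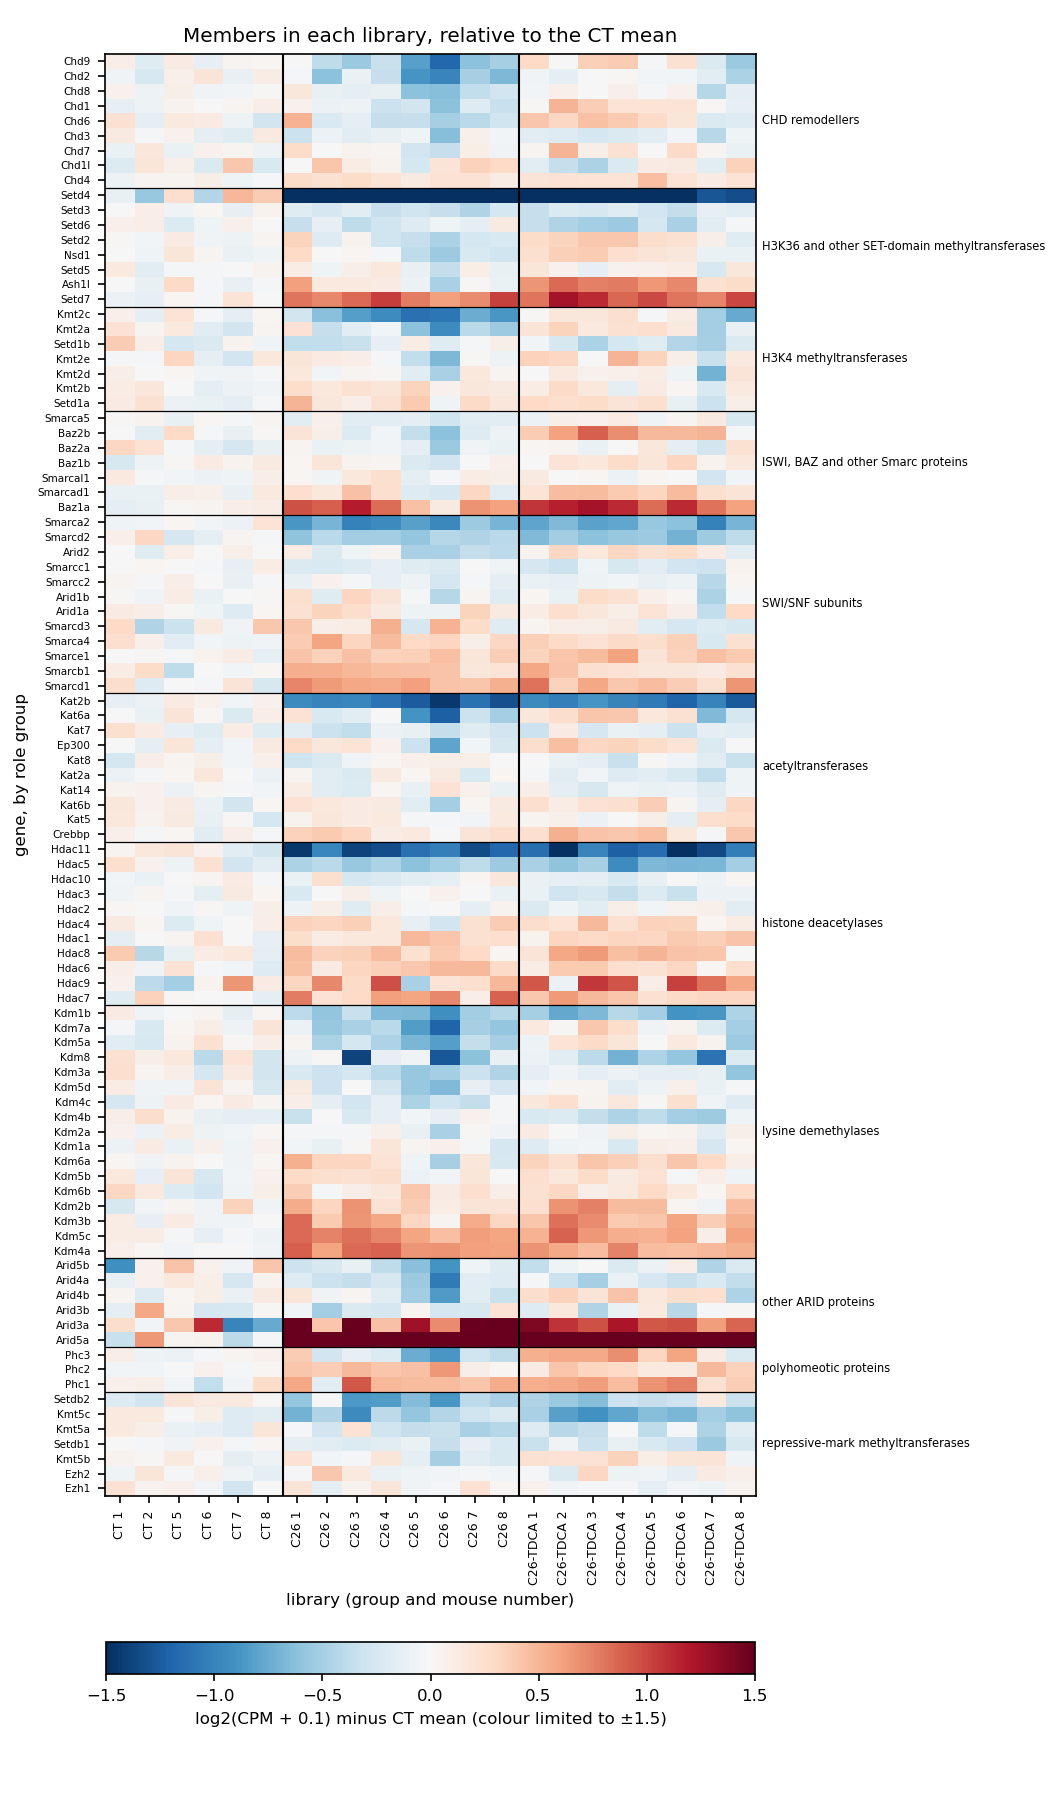
Colour shows log2(CPM + 0.1) minus the CT mean, limited to ±1.5, for each of the 97 genes (rows, by role) in each of the 22 libraries (columns, by group and mouse). Arid5a is above and Setd4 below CT in all 16 tumour libraries, and C26 mouse 6 has the lowest median of all columns, -0.30.

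Among the ARID proteins, which share a DNA-binding domain, Arid5a showed the largest rise of the family. Arid5a binds and stabilises the mRNA of inflammatory cytokines such as interleukin-6. It had 1.15 CPM in the lowest, 1.55 at the median and 2.48 in the highest CT mouse, and 5.96, 8.13 and 11.7 CPM in C26. The groups did not overlap, and the log2 fold change was 2.41 (SE 0.23, adjusted p = 4.35e-09), a 5.30-fold rise. The level stayed low in absolute terms, at 8.45 ± 2.10 CPM in C26 (SD, n = 8). Arid3a, a B-cell and stem-cell regulator, rose by 1.17 (SE 0.30, adjusted p = 0.002) from 0.788 ± 0.475 CPM, with overlapping groups. Arid4a and Arid5b fell by 0.37 and 0.39 on the log2 scale (adjusted p = 0.00471 and 0.0317). Arid3b and Arid4b did not pass the test, though Arid3b was lower with the trend removed (-0.38, adjusted p = 0.0195).

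Setd4 showed the deepest fall. This SET-domain methyltransferase is less studied than the others and has been linked to quiescent progenitor cells. It had 7.29, 11.5 and 15.4 CPM in the lowest, median and highest CT mouse, and 1.79, 2.65 and 3.49 CPM in C26. No C26 mouse reached the lowest CT mouse, and Setd4 fell by 2.11 on the log2 scale (SE 0.20, adjusted p = 1.81e-09), a 4.30-fold lower level. Setd7, which monomethylates H3K4 and several non-histone proteins, went the other way: 6.86 to 8.61 CPM in CT and 11.5 to 15.5 CPM in C26, with no overlap (log2 fold change 0.83, SE 0.09, adjusted p = 2.83e-08). Setd3 fell by 0.29 (adjusted p = 0.000122). Ash1l, Setd2 and Nsd1, the methyltransferases of H3K36, a lysine marked along transcribed genes, did not pass the test, with log2 fold changes of 0.07, -0.16 and -0.12.

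Of the 7 H3K4 methyltransferases, which mark active promoters and enhancers, 1 rose and 1 fell, where 28.9% and 29.2% of all genes did. Kmt2c, which methylates enhancers, had 37.4, 41.5 and 47.9 CPM (lowest, median, highest) in CT and 19.0, 23.0 and 34.2 CPM in C26. The groups did not overlap, and Kmt2c fell by 0.80 (SE 0.14, adjusted p = 2.55e-05). Its close paralogue Kmt2d had 79.2 ± 3.09 CPM in CT and 77.9 ± 10.3 in C26 and was not called, with a log2 difference of -0.02 (approximate 95% interval -0.23 to 0.18); with the trend removed it was lower by 0.41 (adjusted p = 5.93e-06). Kmt2b rose by 0.19 (adjusted p = 0.0274), a call that ended with the trend removed, where the value was -0.13. In that fit 0 of the 7 H3K4 genes were higher and 4 lower (27.1% and 32.9% of all genes), with a median of -0.41. Among the 7 methyltransferases of repressive marks, 4 fell (29.2% of all genes) and none rose (28.9% of all genes). Setdb2, which trimethylates H3K9 and is induced by interferon, fell by 0.58 (adjusted p = 0.000426), from a median of 18.9 to 11.7 CPM, and Kmt5c, which trimethylates H4K20, fell by 0.50 (adjusted p = 0.000112) with no overlap between groups. Kmt5a and Setdb1 fell by 0.24 and 0.18 (adjusted p = 0.0474 and 0.0154). The catalytic Polycomb subunits Ezh1 and Ezh2 stayed at 0.05 and 0.04 and were not called.

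Of the 17 lysine demethylases 4 were higher and 5 lower, shares below or near the 28.9% and 29.2% of all genes. Kdm4a, which removes methyl groups from H3K9 and H3K36, had 24.8, 25.6 and 27.0 CPM in CT and 38.6, 40.7 and 47.8 CPM in C26 (lowest, median, highest). Kdm5c, an X-linked eraser of H3K4 methylation, had 57.2, 61.4 and 67.3 CPM in CT and 85.1, 99.8 and 112 CPM in C26. Neither gene's groups overlapped, and the log2 fold changes were 0.73 (SE 0.06, adjusted p = 8.38e-10) for Kdm4a and 0.68 (SE 0.09, adjusted p = 4.2e-07) for Kdm5c. Kdm3b, a H3K9 demethylase, rose by 0.48 (adjusted p = 0.000211). Kdm2b, a subunit of a variant Polycomb complex, rose by 0.33 (adjusted p = 0.0207), a call that the trend removal ended. The flavin-dependent H3K4 demethylase Kdm1b fell by 0.56 (SE 0.09, adjusted p = 6.14e-06), from 31.3 to 37.7 CPM in CT to 18.2 to 27.3 CPM in C26. Kdm7a, which acts on H3K9 and H3K27, fell by 0.56 (adjusted p = 0.000865), and Kdm5a, the paralogue of Kdm5c, fell by 0.43 (adjusted p = 0.00339). Kdm3a, a H3K9 demethylase of the same family as Kdm3b, fell by 0.39 (adjusted p = 0.000496). Kdm5d, the Y-linked paralogue of Kdm5c, fell by 0.24 (adjusted p = 0.0367), which was no longer called with the trend removed. The Kdm5 and Kdm3 families thus each held members that rose and members that fell.

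Of the 10 acetyltransferases 1 was higher and 2 were lower as fitted, where 28.9% and 29.2% of all genes were. With the trend removed 0 were higher and 6 lower, against 27.1% and 32.9% of all genes, and the median was -0.22, against -0.04. The lowest value as fitted was that of Kat2b, a coactivator of the SAGA-type complexes also known as PCAF. Kat2b had 102, 112 and 121 CPM in CT and 40.6, 51.2 and 57.5 CPM in C26 (lowest, median, highest). The C26 mice sat far below the CT level with no overlap, and Kat2b fell by 1.14 (SE 0.08, adjusted p = 5.21e-12). Its paralogue Kat2a was at -0.03 and was not called, but was lower with the trend removed (-0.26, adjusted p = 0.000582). Kat7 fell by 0.24 (adjusted p = 0.0117). Crebbp rose by 0.23 (adjusted p = 0.0174), a call lost with the trend removed, while Ep300 was at -0.05 and was not called, but was lower with the trend removed (-0.23, adjusted p = 0.0245).

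Of the 11 histone deacetylases, 4 rose and 2 fell, where 28.9% and 29.2% of all genes did. Hdac11, the only class IV enzyme, which also removes fatty acyl groups, had 30.3, 38.0 and 41.9 CPM in CT and 13.4, 15.4 and 18.5 CPM in C26 (lowest, median, highest). The lowest CT mouse was well above the highest C26 mouse, and Hdac11 fell by 1.23 (SE 0.11, adjusted p = 4.56e-10). Hdac5, a class IIa enzyme that shuttles between nucleus and cytoplasm, fell by 0.51 (adjusted p = 7.88e-06), from 25.2 to 36.6 CPM in CT to 20.1 to 23.7 CPM in C26. Another class IIa member, Hdac7, rose by 0.55 (adjusted p = 0.000296), a call that the trend removal ended (adjusted p = 0.0536). Hdac6, a cytoplasmic deacetylase of tubulin, rose by 0.37 (adjusted p = 0.000123), and Hdac1, the catalytic subunit of several corepressor complexes, by 0.26 (adjusted p = 0.00428). Hdac2 and Hdac3 were at -0.02 and -0.03 and were not called.

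In the SWI/SNF complex, the 2 alternative ATPases had opposite log2 fold changes. Smarca2 (BRM) had 145, 149 and 177 CPM in CT and 76.0, 85.4 and 105 CPM in C26 (lowest, median, highest), and Smarca4 (BRG1) had 36.2, 39.2 and 48.1 CPM in CT and 42.9, 50.7 and 61.0 CPM in C26. Smarca2 did not overlap between groups and fell by 0.82 (SE 0.08, adjusted p = 2.86e-09), while Smarca4 overlapped and rose by 0.35 (SE 0.09, adjusted p = 0.0011), a call that ended with the trend removed (0.09, adjusted p = 0.275). Per kilobase, mean Smarca2 went from 25.96 to 14.8 CPM and mean Smarca4 from 6.37 to 8.12 CPM, so that Smarca2 stayed the higher of the pair. The 60 kDa subunits diverged too: Smarcd2 fell by 0.50 (adjusted p = 1.54e-06) and Smarcd1 rose by 0.57 (adjusted p = 5.52e-05), each without overlap. The core subunits Smarcb1 and Smarce1 rose by 0.41 and 0.37 (adjusted p = 0.00057 and 1.45e-05) and Smarcc1 fell by 0.15 (adjusted p = 0.0431).

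Of the 9 CHD remodellers 4 were lower and 1 higher, where 29.2% and 28.9% of all genes were. Chd9 and Chd2 fell by 0.52 and 0.49 (adjusted p = 0.00328 and 0.00138), and Chd8 and Chd1 by 0.24 and 0.22 (adjusted p = 0.042 and 0.0487). Chd4, the ATPase of the NuRD corepressor, rose by 0.21 (adjusted p = 0.00197), from 94.2 to 106 CPM in CT to 108 to 121 CPM in C26. With the trend removed the Chd4 value was 0.002 (adjusted p = 0.982) and the Chd1 call also ended (-0.11, adjusted p = 0.173). In that fit 6 of the 9 CHD genes were lower and 0 higher, where 32.9% and 27.1% of all genes were. Of the ISWI and BAZ group, Baz1a, the ACF1 subunit of ISWI remodellers, rose by 0.75 (SE 0.13, adjusted p = 2.09e-05), from 8.37 to 10.1 CPM in CT to 10.2 to 21.2 CPM in C26. The ISWI ATPase Smarca5, its partner, fell by 0.15 (adjusted p = 0.0396), which became 0.008 with the trend removed. Of the polyhomeotic proteins, Phc1 and Phc2 rose by 0.51 and 0.37 (adjusted p = 0.00276 and 0.000372) and Phc3 was at -0.27 and was not called; the Phc2 call ended with the trend removed (adjusted p = 0.445).

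**Figure D3:**
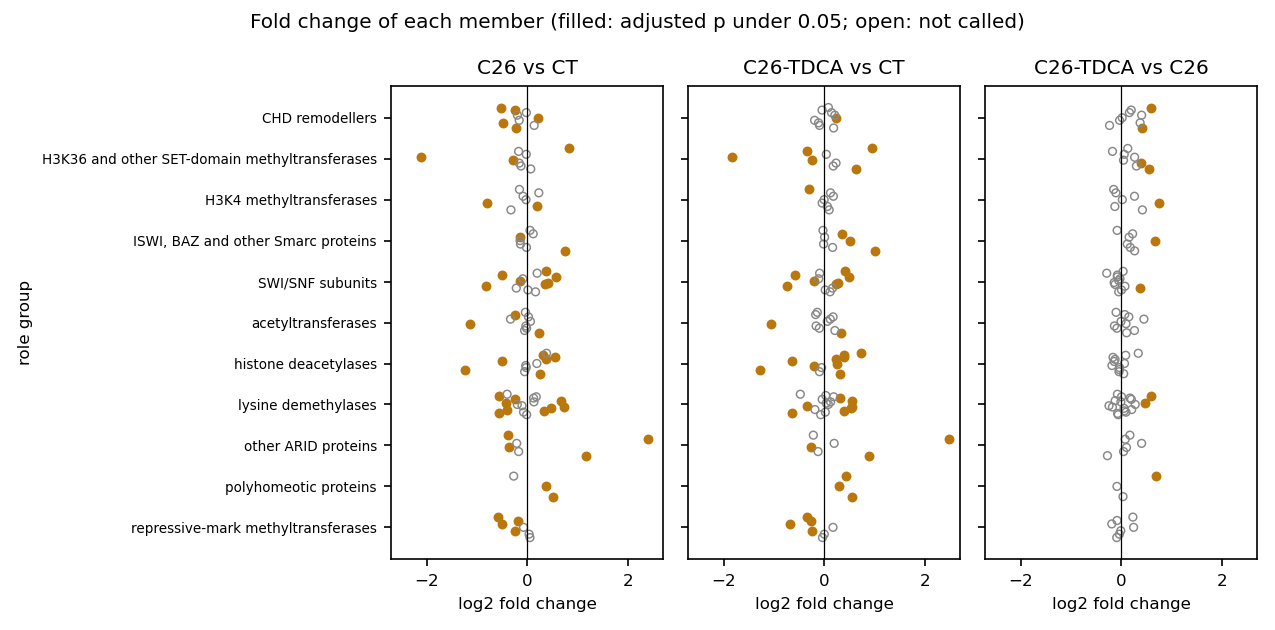
Log2 fold change of each of the 97 genes (points) by role group (rows) in the 3 comparisons (panels); filled points passed an adjusted p under 0.05. The points of C26-TDCA against C26 lie between -0.29 and 0.76, a narrower band than the -2.11 to 2.41 of C26 against CT, and all filled points there are to the right of 0.

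Mice given TDCA as well as tumour cells also differed from CT in both directions. In C26-TDCA against CT, 27 genes were higher (27.8%; 28.7% of all genes) and 18 lower (18.6%; 28.2% of all genes), with a median of 0.06 against 0.01 over all genes. Groups did not overlap for 10 genes that were higher and 10 that were lower (20.6%, against 31.6% of all genes). With the trend removed 18 were higher and 41 lower (25.7% and 34.1% of all genes, 59.8% in either direction), with a median of -0.12, and 23 of the 52 genes not called as fitted were then lower. This comparison and the previous one share the CT mice, so their values are set side by side and not counted as separate evidence.

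The large changes were close in size in the 2 tumour groups. Arid5a had 5.25, 8.87 and 14.5 CPM (lowest, median, highest) in C26-TDCA, and rose by 2.49 (SE 0.23, adjusted p = 2.4e-09). Setd4 had 2.31, 2.88 and 4.40 CPM and fell by 1.84 (SE 0.19, adjusted p = 1.35e-08). Hdac11 had 11.3, 16.1 and 18.4 CPM and fell by 1.27 (SE 0.11, adjusted p = 2.51e-10). None of these 3 genes overlapped with CT, as in C26. Kat2b and Smarca2 fell by 1.05 and 0.74 (adjusted p = 2.38e-11 and 1.44e-08), and Kmt5c, Hdac5, Kdm1b and Smarcd2 by 0.68, 0.65, 0.63 and 0.57. Baz1a rose by 1.02 (SE 0.13, adjusted p = 2.63e-07), Setd7 by 0.96 (SE 0.09, adjusted p = 2.35e-09), Kdm5c by 0.56 and Kdm4a by 0.56 (adjusted p = 6.56e-06 and 7.5e-08). Between C26-TDCA and C26 directly, Arid5a differed by 0.08 (approximate 95% interval -0.28 to 0.44), Setd4 by 0.27 (-0.11 to 0.64) and Hdac11 by -0.04 (-0.24 to 0.16), and none was called; these intervals bound the difference and do not show that the groups are alike.

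Some genes passed the test against CT in C26-TDCA and not in C26. Ash1l, which had 44.3 to 58.2 CPM in CT, had 55.9 to 86.2 CPM in C26-TDCA and rose by 0.62 (SE 0.13, adjusted p = 0.000153). Baz2b, a bromodomain subunit of ISWI-type remodellers, rose by 0.52 (adjusted p = 0.00066), and Phc3 by 0.42 (adjusted p = 0.0174). Hdac9, near the bottom of the family with 0.941 ± 0.315 CPM in CT, rose by 0.72 (SE 0.25, adjusted p = 0.0155), and Smarcad1 by 0.35 (adjusted p = 0.00374). Kdm4b and Setd6 fell by 0.35 and 0.34 (adjusted p = 0.00107 and 0.00236), and Setd1b and Hdac3 by 0.30 and 0.21 (adjusted p = 0.0131 and 0.00485). For Ash1l, Baz2b and Phc3 the direct comparison of the tumour groups follows, while Hdac9 (0.34), Smarcad1 (0.23), Kdm4b (-0.24), Setd6 (-0.17), Setd1b (-0.15) and Hdac3 (-0.18) were not called in it. With the trend removed, Smarcad1 was higher in C26 than in CT too (0.23, adjusted p = 0.0112), and Kdm4b, Setd6 and Setd1b were lower in C26 too (-0.38, -0.28 and -0.48). All 3 polyhomeotic genes were higher than in CT, with Phc2 lost (adjusted p = 0.289) and Phc1 and Phc3 kept after trend removal. In all, the trend removal ended 9 of the 27 higher calls (Chd4, Smarca4, Smarcb1, Crebbp, Hdac4, Hdac6, Hdac7, Kdm2b and Phc2) and none of the 18 lower calls.

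**Figure D4:**
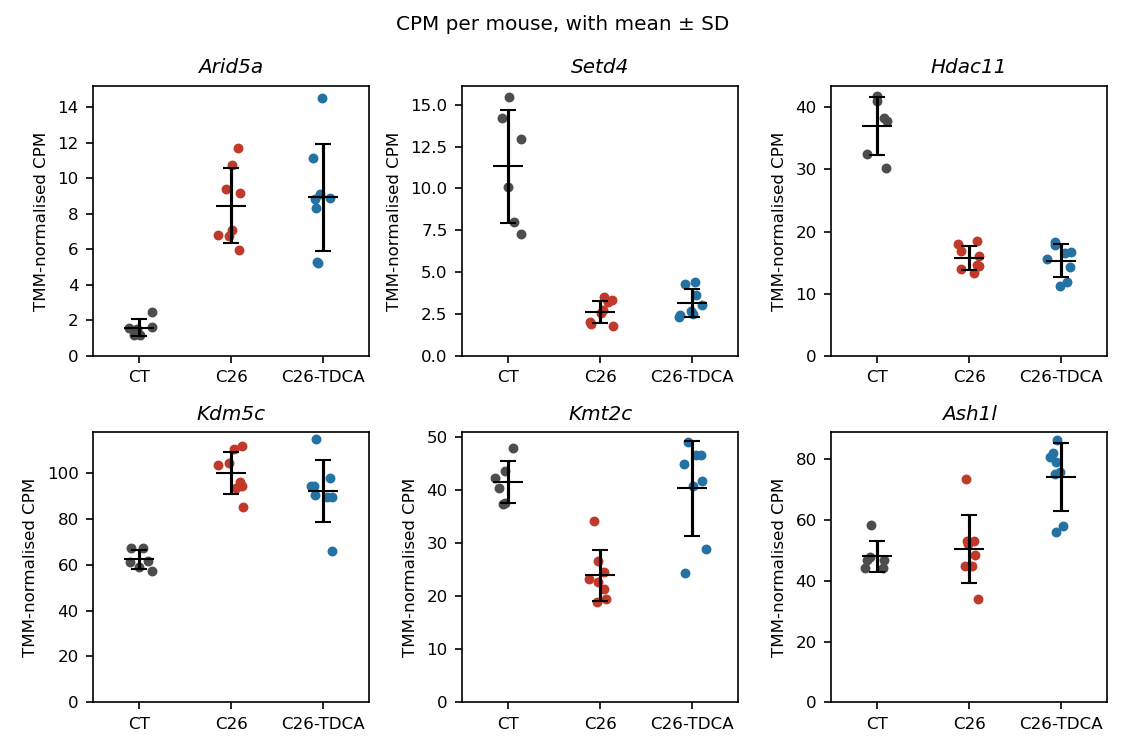
TMM-scaled CPM of 6 genes in each mouse (points), with mean and SD (bars), by group. Arid5a, Setd4 and Hdac11 separate CT from both tumour groups, Kdm5c is higher in tumour groups with C26-TDCA mouse 7 at 65.9 CPM inside the CT range, Kmt2c is lowest in C26, and Ash1l is highest in C26-TDCA.

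Between the 2 tumour groups all called genes of the family were higher in C26-TDCA, while 57 of the 97 log2 fold changes were positive. In C26-TDCA against C26, 10 of the 97 genes (10.3%) were higher and 0 were lower, where 1.73% of all genes were higher and 0.237% lower (1.97% in either direction). At an unadjusted p under 0.05, 27 were higher and 3 lower, with no share over all genes counted, so nothing is read from it. DESeq2 called 14 higher and 0 lower, where it called 3.81% and 0.961% of the 11550 genes to which it gave an adjusted p. The contrast was known when the family was proposed, so the share is a description. For none of the 97 did the groups fail to overlap (0.0947% of all genes with the higher values in C26-TDCA, 0.149% in either direction). The median log2 fold change was 0.05, against -0.01 over all genes. The 10 genes were Kmt2c, Phc3, Baz2b, Chd9, Kdm7a, Ash1l, Kdm5a, Chd1, Setd2 and Arid2, with log2 fold changes of 0.38 to 0.76 and adjusted p of 0.0117 to 0.0308. They cover methylation of H3K4 (Kmt2c) and H3K36 (Ash1l, Setd2), histone demethylation (Kdm5a, Kdm7a), nucleosome remodelling (Chd1, Chd9, Baz2b, Arid2) and Polycomb repression (Phc3).

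Kmt2c had 24.4, 43.4 and 49.1 CPM (lowest, median, highest) in C26-TDCA and 19.0, 23.0 and 34.2 CPM in C26. The 2 lowest C26-TDCA mice were inside the C26 range and the other 6 above it, and the log2 fold change was 0.76 (SE 0.13, adjusted p = 0.0117). Phc3 had 22.7, 38.7 and 42.9 CPM against 14.4, 21.6 and 34.6 CPM, a log2 fold change of 0.69 (SE 0.14, adjusted p = 0.0143). Baz2b had 14.2, 20.3 and 26.9 CPM against 9.30, 13.1 and 16.3 CPM (0.66, SE 0.11, adjusted p = 0.0117). In each of these 3 genes the medians stood well apart but the tails crossed: C26-TDCA mouse 8 was the lowest of its group, and C26 mouse 1 the highest of its group. Ash1l had 55.9, 77.5 and 86.2 CPM against 34.0, 50.3 and 73.4 CPM (0.55, SE 0.12, adjusted p = 0.018). Chd9 rose by 0.60 (SE 0.13, adjusted p = 0.0226), Kdm7a by 0.59 (SE 0.12, adjusted p = 0.0182) and Kdm5a by 0.47 (SE 0.11, adjusted p = 0.0268). Chd1, which binds methylated H3K4, rose by 0.41 (adjusted p = 0.0202), Setd2, the H3K36 trimethylase, by 0.39 (adjusted p = 0.0308) and Arid2, a subunit of the PBAF form of SWI/SNF, by 0.38 (adjusted p = 0.0258). Within C26, mouse 1 had the highest level of all 10 genes and mouse 6 the lowest of 9 (mouse 5 of Kmt2c), and mice 1 and 6 also had the highest and the lowest length slope of the group.

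All 10 genes had long transcripts of low to middling GC, from 7895 to 14967 bases and from 39.6% to 47.6%. Among the 47 genes of the family that reached 6 kb, 10 were higher (21.3%), against 161 of 1816 other protein-coding genes of that length (8.87%), and none of the 50 shorter ones was called. Below 47% GC, 9 of 29 were higher (31.0%), against 200 of 4637 others (4.31%). With both properties the counts were 9 of 15 (60.0%) and 148 of 901 (16.4%). These bins are open-ended and do not match the family to the others in length, GC or level. The median level was 24.6 CPM in the family and 13.6 in the others, and whether the shares differ beyond such properties was not tested. Across the 97 genes, the log2 fold change had a Pearson correlation of 0.55 with log2 transcript length and of -0.631 with GC, and across the 12799 others of 0.285 and -0.365. Genes of 1 set of libraries are not independent replicates, and these correlations are descriptions with no p.

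After trend removal, 3 of the 97 remained called, all of them higher: Kmt2c (0.46, adjusted p = 0.0265), Baz2b (0.47, adjusted p = 0.0265) and Phc3 (0.40, adjusted p = 0.0315). Over all genes 8 were higher (0.0541%) and 4 lower (0.0271%), 0.0812% in either direction. The other 7 genes kept positive values, from 0.15 in Setd2 to 0.30 in Chd9, with adjusted p from 0.0712 (Ash1l) to 0.41 (Kdm5a). Of the 15 genes of the family with long transcripts of low GC, 2 were higher, as were 2 of the 901 others. The correlations fell to 0.362 with length and -0.278 with GC in the family and to 0.0675 and 0.0356 in the others. Without the 3 tumour libraries of lowest length slope (C26 mice 5 and 6, C26-TDCA mouse 7), 0 of the 97 and 0 of all 14687 genes were called by edgeR, in a fit that also has 3 mice fewer. The values of the 10 genes stayed positive there, from 0.31 in Arid2 to 0.72 in Kmt2c, with adjusted p from 0.0859 (Kmt2c) to 0.193 (Kdm5a). The part of those libraries and of the smaller number of mice in the lost calls cannot be told apart. In that fit, at an unadjusted p under 0.05, 20 of the 97 were higher and 3 lower. No share over all genes was counted, so nothing is read from these 2 numbers. The median was 0.03, against -0.01 over all genes. Leaving out 1 mouse at a time gave 4 to 18 higher calls. There were 18 without C26 mouse 1 (3.58% of all genes) and 6 without C26 mouse 5 (0.581%) or C26-TDCA mouse 3 (0.622%). Without C26-TDCA mouse 4 there were 4 (0.367%), so the share of all genes moved too.

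**Figure D5:**
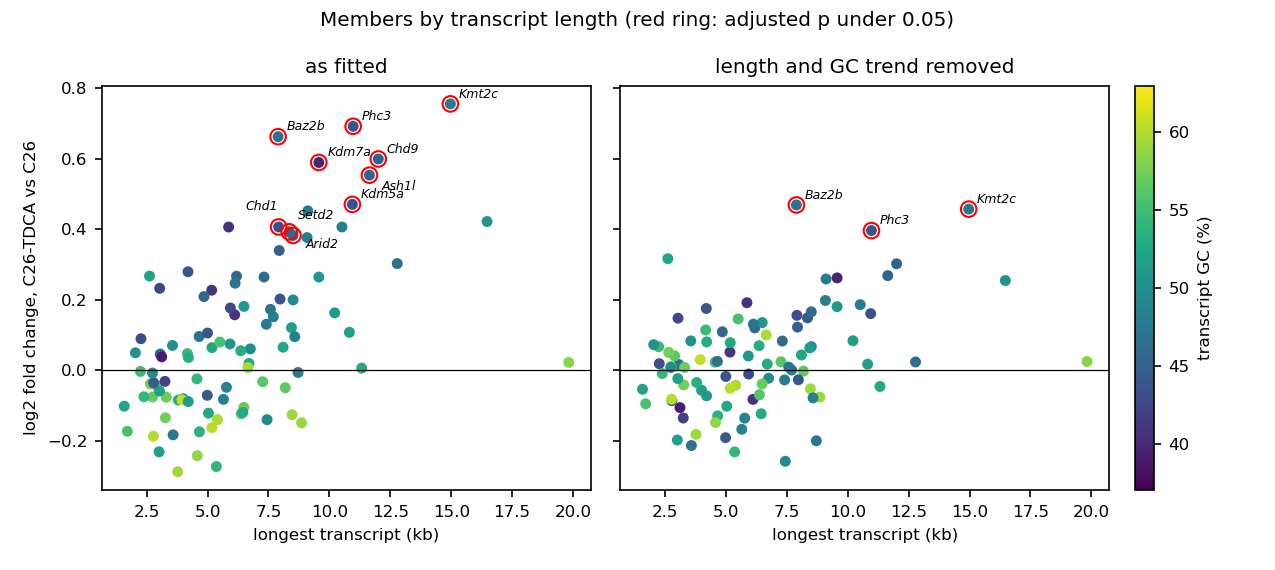
Log2 fold change of the 97 genes in C26-TDCA against C26 (vertical) by the length of the longest transcript (horizontal, kb), coloured by transcript GC, as fitted (left) and after trend removal (right). Red rings mark an adjusted p under 0.05: 10 genes of 7.9 kb or longer on the left, and Kmt2c, Phc3 and Baz2b on the right.

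The 3 groups can be set side by side for the 10 genes, with the reminder that the comparisons share mice. In 5 of them (Kmt2c, Chd9, Kdm7a, Kdm5a and Chd1) C26 was lower than CT and C26-TDCA was not called against CT. Kmt2c averaged 41.6 ± 3.99 CPM in CT, 23.9 ± 4.87 in C26 and 40.4 ± 8.97 in C26-TDCA. Kdm7a averaged 22.6 ± 2.25, 15.3 ± 3.28 and 23.1 ± 4.37 CPM, and Kdm5a 32.3 ± 3.83, 24.0 ± 4.57 and 33.2 ± 5.33 CPM. In these 3 genes the means of CT and C26-TDCA lay closer to each other than either did to C26. Chd1 differed from them: it averaged 48.2 ± 2.78 CPM in CT, 41.4 ± 5.83 in C26 and 54.9 ± 7.83 in C26-TDCA, so that CT lay between the tumour groups. With the trend removed Kmt2c was lower than CT in C26 (-0.82, adjusted p = 1.63e-08) and also in C26-TDCA (-0.37, adjusted p = 0.000814). In another 3 (Ash1l, Baz2b and Phc3) C26 was not called against CT and C26-TDCA was higher. Ash1l averaged 48.1 ± 5.18 CPM in CT, 50.5 ± 11.2 in C26 and 74.1 ± 11.2 in C26-TDCA. The remaining 2, Setd2 and Arid2, were called in neither comparison with CT as fitted, and Arid2 was lower in C26 with the trend removed (-0.19, adjusted p = 0.0132).

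The partner lists held 217 genes, of which 209 could be tested. They took in subunits of the same complexes, other histone enzymes, bromodomain proteins and chaperones. They also held DNA methylation genes and relatives such as the mitochondrial deacetylase Sirt3, so not all act on the same marks. In C26 against CT 34 were higher (16.3%) and 64 lower (30.6%), and in C26-TDCA against CT 42 were higher (20.1%) and 55 lower (26.3%). In C26-TDCA against C26, 7 were higher (3.35%), and none of these 7 stayed called with the trend removed. Their median transcript of 3901 bases was shorter than that of the family. Over all genes tested, 28.9% were higher and 29.2% lower in C26 than in CT, 28.7% and 28.2% in C26-TDCA than in CT, and 1.73% higher in C26-TDCA than in C26. In the list of Polycomb and DNA methylation genes, 4 of 28 were higher and 13 lower in C26. Cbx7, a reader of H3K27 methylation in Polycomb complexes, fell from 13.6 ± 0.839 to 5.42 ± 1.14 CPM (log2 fold change -1.34, adjusted p = 1.71e-10). The DNA methyltransferase Dnmt3b rose from 2.06 ± 0.536 to 5.14 ± 0.867 CPM (1.31, adjusted p = 3.38e-07).

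In the other partner lists, Sirt3, the mitochondrial deacetylase, fell by 0.87 (adjusted p = 6.91e-13), and Rcor3, of the corepressor list, by 0.86 (adjusted p = 6.17e-06). Phip, a bromodomain protein, rose in C26 by 1.67 and in C26-TDCA by 2.29 against CT (adjusted p = 2.52e-08 and 1.55e-10). Morf4l2, a subunit shared by acetyltransferase and deacetylase complexes, rose by 0.78 (adjusted p = 1.93e-10). Partners of the H3K4 methyltransferases had 3 of 11 higher and 5 lower, and those of INO80 and ISWI 1 of 26 higher and 7 lower. The counts were 4 higher and 8 lower of 16 for SWI/SNF accessory subunits, 3 and 7 of 28 for NuRD and corepressors, 9 and 10 of 43 for acetyltransferase complexes, 3 and 9 of 34 for other histone enzymes and 7 and 5 of 23 for bromodomain proteins and chaperones. The 7 partners that were higher in C26-TDCA than in C26 were Jmjd1c (0.71), Tet2 (0.70), Phip (0.62), Atrx (0.60), Ubn2 (0.52), Pbrm1 (0.39) and Uty (0.34). With the trend removed their values were 0.44, 0.45, 0.22, 0.26, 0.16, 0.11 and 0.08.

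Reads of some genes of the family may be shared with others. The annotation places exon bases of 41 of the 97 on those of another gene, with 20% or more of the exon bases in 4: Setd1a (51.8%), Smarcd3 (48.2%), Kdm3b (24.6%) and Hdac4 (22.4%). Of the genes with large changes, Hdac11 shared 15.4% of its exon bases with a gene on the opposite strand. The strand setting of the counting is not given in the sources used here, so reads from such pairs cannot be told apart.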

How the data were processed

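Liver poly(A) RNA of 22 mice was measured by RNA-seq. The authors deposited raw counts per Ensembl gene, 1 column per mouse. The submitters' processing notes list HISAT2 2.2.1 and featureCounts 2.0.3 beside Trimmomatic 0.40, FastQC, bcl2fastq 2.17 and DESeq2 1.42.0, and name the build GRCm38. For annotation release, strand setting and multiply mapped reads: not given in the sources used here.

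Depth was 16.5 to 28.3 M counts per library, where 3 counts are 0.18 and 0.11 CPM. No 2 libraries of a group agreed within sampling noise (lowest chi-square over its degrees of freedom 11.1). Symbols, lengths and coordinates came from GENCODE M21 (15443 of 15448 genes matched). In edgeR 4.0.16 (R 4.3.3), filterByExpr with a minimum count of 10 kept 14785 genes and removed 663. Counts were scaled by TMM and fitted with a mean per group over all 22 libraries, and the quasi-likelihood F test was adjusted by Benjamini-Hochberg over all genes at 0.05. SE was taken as the size of the log2 fold change divided by the root of F, and approximate 95% intervals are 1.96 SE on each side.

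The trend fit used loess (span 0.3) of log2 CPM (prior count 2) on length and GC of the longest transcript. Scripts were tested on simulated data. Alternatives were DESeq2, other scalings, no filter, 2 groups only, a replicate block, trend terms and leaving out libraries. The members and all lists were chosen with earlier results of these data known; no test over a list was made. Named genes were, per role group, up to 2 called genes from each end of the fold changes against CT, in C26-TDCA against C26 the 12 of lowest p and 6 with the trend removed, and the extreme called gene of each partner list. Genes named beyond this rule were chosen after their values were seen.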

Additional observations from a re-analysis of the deposited data

Results flagged for a closer look

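In groups of 6 or 8 mice, 12 of the 150 tested gene and group pairs held 1 mouse that stood far from the rest of its group, and chance alone gives about 1 in 20. In CT, mouse 2 had the highest Arid5a (2.48 CPM; the other 5 mice 1.15 to 1.61) and Hdac7 (8.00 CPM; 5.53 to 6.37). CT mouse 5 had the highest Ash1l (58.2 CPM; 44.3 to 47.9) and Baz2b (17.6 CPM; 12.7 to 14.5), and CT mouse 8 the highest Smarca2 (177 CPM; 145 to 157). In C26, Smarca5 was highest in mouse 2 (37.8 CPM; 29.1 to 32.3) and Smarce1 lowest in mouse 7 (27.9 CPM; 31.2 to 33.6). In C26-TDCA, mouse 8 had the lowest Arid4b (17.6 CPM; 27.2 to 32.9) and Chd2 (28.7 CPM; 35.4 to 40.4). Also in C26-TDCA, Chd4 was highest in mouse 5 (136 CPM; 109 to 116), Kat7 in mouse 2 (24.8 CPM; 18.3 to 21.3) and Setdb2 in mouse 7 (19.8 CPM; 11.5 to 14.4).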

How the results depend on the processing

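DESeq2, DESeq2 size factors and no filter on low counts left every call of a gene named by the rule and its direction unchanged and kept all counts within 1.5 times. In C26-TDCA against C26, DESeq2 called 14 genes higher (3.81% of all genes with an adjusted p), against 10 in edgeR (1.73%). Of the genes named by the rule, DESeq2 added Arid4b and Chd2 (adjusted p = 0.0302 and 0.0354, against 0.0793 and 0.086 in edgeR). In C26 against CT, lower calls numbered 17 with upper-quartile scaling, where 25.1% of all genes were lower. They were 44 with the trend removed (32.9% of all genes) and 42 with a replicate block and the trend removed (31.5%). The medians of these 2 fits were -0.13 and -0.14. In C26-TDCA against CT, lower calls were 41 with the trend removed (34.1% of all genes) and 37 with the length trend alone removed (33.6%). With the block and trend removal 38 were lower (32.6%), and without the 3 libraries of lowest length slope and with trend removal 40 (34.7%). Higher calls in the last 3 fits were 17, 16 and 16, against 25.5%, 24.7% and 25.7% of all genes. The medians of the 4 fits were -0.12, -0.13, -0.12 and -0.11. In C26-TDCA against C26, higher calls were 2 with only those 2 groups fitted (0.295% of all genes) and 3 with the trend removed (0.0541%). With the length trend alone removed they were 6 (0.508%), with 2 lower (0.467%) and a median of -0.028. They were 4 with the GC trend alone removed (0.156%) and 3 with the block and trend removal (0.095%). Without the 3 libraries they were 0, as over all genes, with or without trend removal. The cause of these moves was not tested, except that trend removal by construction takes out what follows length and GC. The fits without the 3 libraries were added after the data were seen.

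Under trend removal Kmt2b in C26 against CT turned to -0.13, to -0.11 with the block and to -0.15 without the 3 libraries. Smarca5 turned to 0.0080, to 0.016 with GC alone and to 0.027 with the block. Chd4 turned to -0.027 in C26 and to -0.0057 in C26-TDCA against CT without the 3 libraries.

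Leaving out 1 mouse gave 19 to 23 higher and 19 to 31 lower calls in C26 against CT. Of all genes, 27.32% to 29.35% were then higher and 27.47% to 29.52% lower. In C26-TDCA against CT the counts were 24 to 31 and 16 to 20 (27.18% to 28.85% and 26.68% to 28.3%). In C26-TDCA against C26 they were 4 to 18 and 0 to 2 (0.367% to 3.58% and 0.034% to 0.455%). The medians ran from -0.08 to -0.03, from 0.04 to 0.09 and from 0.03 to 0.08. The difference in length slope ranged from -0.0238 to 0.0138 between C26 and CT (0.000328 without C26 mouse 5 and 0.0138 without C26 mouse 6), from 0.0564 to 0.0818 between C26-TDCA and CT and from 0.0498 to 0.0905 between C26-TDCA and C26. Over genes of at least 10 CPM the slope difference between C26-TDCA and CT was 0.0796 and passed the test. The difference in GC slope ranged from 0.156 to 0.20, from 0.0326 to 0.0661 and from -0.148 to -0.109.

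Mouse numbers did not pair the samples: deviations of same-numbered mice correlated from -0.413 to 0.636 between the tumour groups (2 of 8 best with their own number), from -0.229 to 0.0703 between C26 and CT (0 of 6) and from -0.0606 to 0.252 between C26-TDCA and CT (2 of 6). With the replicate block the calls were 21 higher and 29 lower in C26 against CT (27.41% and 28.61% of all genes). They were 26 and 18 in C26-TDCA against CT (27.3% and 26.93%) and 12 and 0 in C26-TDCA against C26 (1.67% and 0.223%). Depth limits the lowest genes, such as Arid3a, Hdac9 and Arid5a near 1 CPM in CT.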
